A study of Mus musculus with 2 samples.

Results

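A set of 10 receptor genes for serotonin and noradrenaline was followed in nuclei of the spinal dynorphin lineage. They were Htr1a, Htr1d, Htr1f, Htr2a, Htr2c, Htr4 and Htr7 for serotonin, and Adra1a, Adra1b and Adra2c for noradrenaline. They were taken by name from the table of all nuclei, and all 10 were among its 19575 genes. Another 12 serotonin and adrenergic receptor genes of that table serve only as a background. The nuclei came from adult mice that carried 1 copy each of Pdyn-IRES-Cre and R26-LSL-Sun1.eGFP, so that any cell whose prodynorphin gene had been active at some time kept a green nuclear envelope. The dorsal cord of lumbar segments L3-L5 was taken and its green nuclei were sorted. The injured library pooled 8 mice with an incision of the left plantar hindpaw at postnatal day 3, and the naive library pooled 8 littermates that had only isoflurane on that day. Both pools held mice of either sex, and the labels do not assign nuclei to mice. Each condition was therefore 1 library, no difference has a replicate check, and no test was made between the libraries.

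Serotonin neurons of the raphe nuclei and noradrenaline neurons of the locus coeruleus and neighbouring brainstem groups send axons down to the dorsal horn, where they turn nociceptive transmission up or down depending on the receptor they meet. Receptors of the 5-HT1 family (Htr1a, Htr1d, Htr1f) and the alpha-2 adrenoceptors (Adra2c) couple to Gi/o proteins, which lower cyclic AMP and open inwardly rectifying potassium channels. The 5-HT2 family (Htr2a, Htr2c) and the alpha-1 adrenoceptors (Adra1a, Adra1b) couple to Gq, which activates phospholipase C. Htr4 and Htr7 encode receptors that couple to Gs, which raises cyclic AMP. Dynorphin-lineage cells of the dorsal horn are local interneurons, most of them inhibitory, and are among the spinal targets of these descending fibres.

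The promoters of the 4 genes below are shown because they stand for both directions seen between the libraries: Htr2c and Htr1f had higher levels and Htr1d and Adra2c lower levels in injured inhibitory-like nuclei. The Htr1d window is at 1 of its annotated starts. Each runs from 250 bases before to 50 bases after an annotated start, 5′ to 3′ on the gene's strand, from RefSeq on GRCm38.p6. Capitals mark matches to 4 motifs searched on both strands, the GC box (GGGCGG), an E-box (CAGCTG), the TATA motif (TATAAA) and the cyclic AMP response element (TGACGTCA).
Htr2c, chrX:146962263-146962562, plus strand: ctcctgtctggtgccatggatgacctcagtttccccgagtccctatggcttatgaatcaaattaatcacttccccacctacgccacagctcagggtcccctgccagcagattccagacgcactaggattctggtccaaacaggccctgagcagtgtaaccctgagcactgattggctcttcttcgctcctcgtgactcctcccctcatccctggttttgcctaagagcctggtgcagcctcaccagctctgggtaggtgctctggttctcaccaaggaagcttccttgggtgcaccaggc
Htr1f, chr16:65105735-65106034, minus strand: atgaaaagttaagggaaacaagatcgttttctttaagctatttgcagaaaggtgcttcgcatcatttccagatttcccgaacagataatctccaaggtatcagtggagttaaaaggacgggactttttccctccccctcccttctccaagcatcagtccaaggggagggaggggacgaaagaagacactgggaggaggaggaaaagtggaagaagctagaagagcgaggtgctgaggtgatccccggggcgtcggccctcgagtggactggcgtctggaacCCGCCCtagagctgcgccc
Htr1d, chr4:136423274-136423573, plus strand: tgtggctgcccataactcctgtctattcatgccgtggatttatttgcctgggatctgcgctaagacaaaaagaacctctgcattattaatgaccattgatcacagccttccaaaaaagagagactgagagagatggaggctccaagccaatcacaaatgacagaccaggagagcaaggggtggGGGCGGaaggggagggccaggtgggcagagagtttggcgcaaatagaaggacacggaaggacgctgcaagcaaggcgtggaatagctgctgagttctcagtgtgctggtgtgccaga
Adra2c, chr5:35278316-35278615, plus strand: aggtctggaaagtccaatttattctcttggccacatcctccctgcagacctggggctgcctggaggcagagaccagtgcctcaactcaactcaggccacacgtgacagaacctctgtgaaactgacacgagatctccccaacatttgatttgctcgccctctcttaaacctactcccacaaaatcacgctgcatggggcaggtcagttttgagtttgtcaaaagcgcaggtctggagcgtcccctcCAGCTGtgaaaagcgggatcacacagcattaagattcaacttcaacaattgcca
The Htr1d window held 1 GC box, the Htr1f window held 1 on the opposite strand (CCGCCC), the Adra2c window held 1 E-box, and none of the 4 motifs was in the Htr2c window. A window at another annotated start of Htr1d, not shown, held 4 GC boxes. Of 32851 promoters in the same table, 35.7% held the GC box, 16.3% this E-box, 13.6% the TATA motif and 1.79% the cyclic AMP response element, so these matches are a description of the letters only.

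In the annotation (GENCODE M21, GRCm38), the genes differ widely in the length from first to last base. Adra2c (ENSMUSG00000045318, chr5:35278319-35281763, plus strand) spans 3.45 kb and Htr1a (ENSMUSG00000021721, chr13:105443639-105448122, plus strand) 4.48 kb. Htr1d (ENSMUSG00000070687, chr4:136423524-136444398, plus strand) spans 20.9 kb, Htr2a (ENSMUSG00000034997, chr14:74640840-74709494, plus strand) 68.7 kb and Htr7 (ENSMUSG00000024798, chr19:35958734-36057507, minus strand) 98.8 kb. The longest are Adra1b (ENSMUSG00000050541, chr11:43774606-43901210, minus strand) at 127 kb, Adra1a (ENSMUSG00000045875, chr14:66635251-66771168, plus strand) at 136 kb, Htr4 (ENSMUSG00000026322, chr18:62324204-62496577, plus strand) at 172 kb, Htr1f (ENSMUSG00000050783, chr16:64924729-65105854, minus strand) at 181 kb and Htr2c (ENSMUSG00000041380, chrX:146962513-147197277, plus strand) at 235 kb. Of the 10 genes, Htr2c alone overlapped other annotated genes, 8 small RNA genes on its own strand, none of which is listed in the table.

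The injured library held 3547 nuclei with 32934588 UMIs (unique molecular identifiers, counts of captured RNA molecules) and a median of 8464 per nucleus. The naive library held 4063 nuclei with 30602222 UMIs and a median of 6955. Inhibitory-like clusters, named from transmitter genes such as Gad1 (GABA) and Slc6a5 (glycine), made up 2290 injured and 2687 naive nuclei, and excitatory-like clusters with the glutamate transporter gene Slc17a6 made up 780 injured and 895 naive nuclei. A further 334 injured and 271 naive nuclei did not meet the naming rule and stayed unnamed. Pdyn itself, the gene that defines the lineage, stood at 32.9 CPM (UMIs per 1000000 of the class total) in injured and 35.04 CPM in naive inhibitory-like nuclei, and had 0 UMIs in the oligodendrocyte-like nuclei of both libraries. Markers of the serotonin and noradrenaline neurons themselves were near 0 in inhibitory-like nuclei: Tph2, the enzyme of serotonin synthesis in neurons, had 15 UMIs in injured and 11 in naive nuclei, and the noradrenaline transporter gene Slc6a2 had 0 in injured and 7 in naive nuclei. Libraries shared 3 cell barcodes.

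Per kilobase of gene span, the scale on which different genes are set side by side here, Htr2c and Adra2c stood highest in inhibitory-like nuclei. Htr2c reached 3.41 CPM per kb in the injured and 2.95 in the naive library, and Adra2c 2.63 in the injured and 4.41 in the naive library. Htr1a (1.14 CPM per kb injured, 1.44 CPM per kb naive), Htr7 (1.09 injured, 1.07 naive) and Adra1a (0.858 injured, 0.787 naive) followed. Htr1d (0.317 injured, 0.431 naive), Htr4 (0.262 injured, 0.195 naive), Adra1b (0.252 injured, 0.253 naive), Htr2a (0.214 injured, 0.188 naive) and Htr1f (0.206 injured, 0.159 naive) were lowest. In excitatory-like nuclei, Adra2c (2.24 CPM per kb in the injured and 2.77 in the naive library) stood above Htr2c (1.47 injured, 1.24 naive), and Htr1d was lowest (0.0692 injured, 0.0781 naive). Whether reads in introns were counted is not given in the sources used here, and a span includes introns, so the order itself may differ if only exons were counted, most of all for genes of very short span such as Adra2c and Htr1a. The values are a description of CPM over span, and the order without division by span was different. In excitatory-like nuclei Adra2c had 7.70 CPM injured and 9.53 CPM naive, against 345 CPM injured and 292 CPM naive for Htr2c.

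Inhibitory-like and excitatory-like nuclei differed in which receptor genes they carried, and they did so alike in both libraries. Htr1a, Htr1d, Htr2c and Adra1a were at least 2-fold higher in inhibitory-like than in excitatory-like nuclei in each library, and Htr4 was at least 2-fold lower. Those are 5 of 10 members past the fold, 4 higher and 1 lower, where 7.86% of 13815 genes with at least 100 UMIs passed it either way, 3.69% higher and 4.17% lower. At 3-fold, Htr1a, Htr1d and Adra1a remained, 3 members higher and 0 lower, beside 4.11% of all genes either way, 1.98% higher and 2.13% lower. The class comparison rests on clusters built without the monoamine receptor genes. All intervals given here are 95% intervals that cover counting error only, and they leave out the differences between mice and between nuclei.

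**Figure D1:**
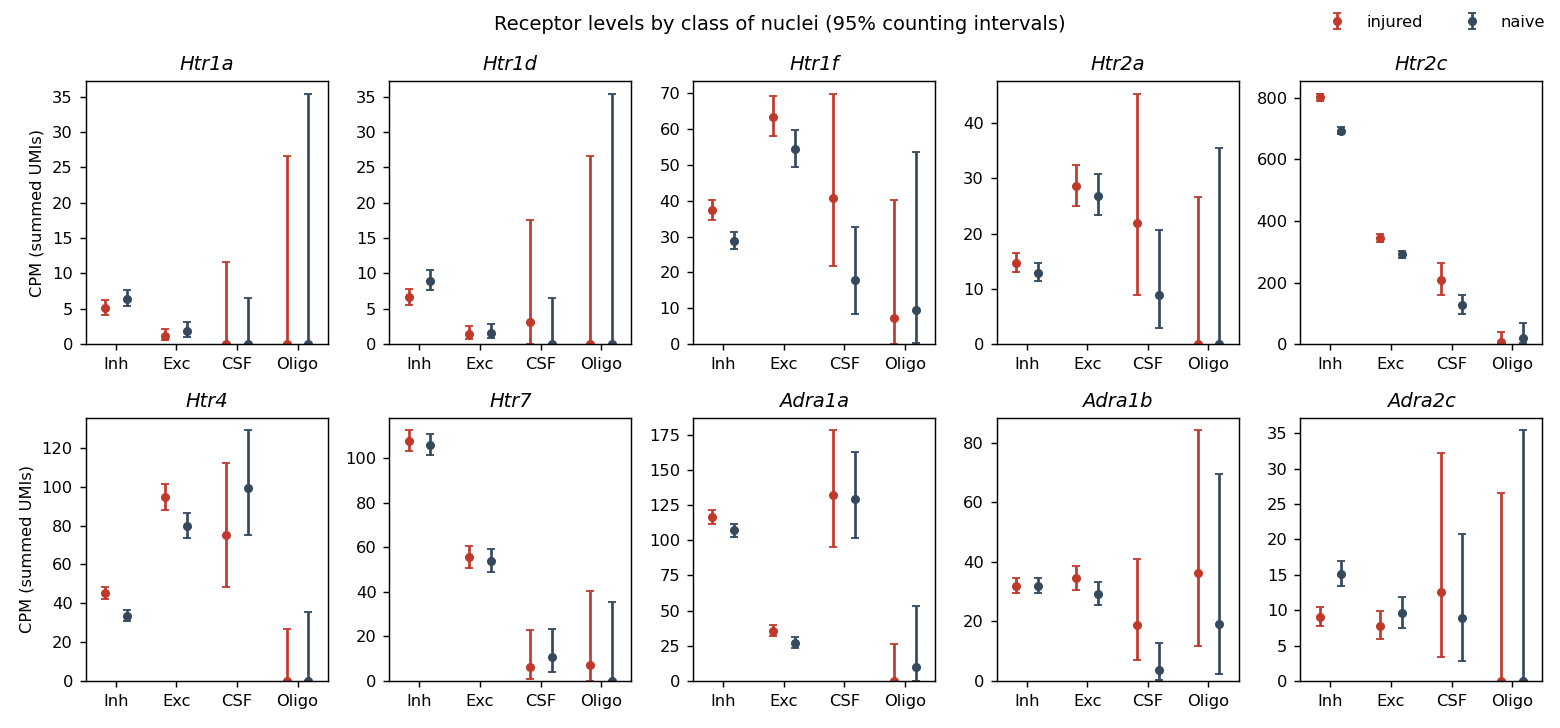
Level of each receptor gene in CPM (y axis, linear, from 0) in inhibitory-like (Inh), excitatory-like (Exc), CSF-contacting neuron-like (CSF) and oligodendrocyte-like (Oligo) nuclei of the injured (red) and naive (dark) library; points are summed counts and bars are 95% counting intervals. Htr2c is highest in the inhibitory-like class at 800.4 CPM injured and 693 CPM naive, while Htr4 is higher in the excitatory-like class at 94.6 CPM injured and 79.9 CPM naive, and the oligodendrocyte-like values rest on at most 5 UMIs a gene.

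Htr1a and Htr1d, the 2 Gi/o-coupled members with the fewest UMIs, were largely genes of the inhibitory-like class. Htr1a, the receptor that also serves as an autoreceptor on raphe neurons, had 5.10 CPM (101 UMIs) in injured and 6.45 CPM (124 UMIs) in naive inhibitory-like nuclei, and 1.20 CPM (10 UMIs) in injured and 1.88 CPM (15 UMIs) in naive excitatory-like nuclei. The inhibitory over excitatory ratio was 4.24 (interval 2.21 to 9.12) in the injured and 3.43 (1.999 to 6.31) in the naive library. Both intervals exclude 1. Htr1d, a receptor bound by triptan drugs, had 6.62 CPM (131 UMIs) in injured and 8.99 CPM (173 UMIs) in naive inhibitory-like nuclei, against 1.44 CPM (12 UMIs) in injured and 1.63 CPM (13 UMIs) in naive excitatory-like nuclei. Its class ratio was 4.59 (2.54 to 9.10) in the injured and 5.52 (3.14 to 10.6) in the naive library.

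Among 19 neuron clusters with at least 30 nuclei in each library (13 inhibitory-like and 6 excitatory-like), Htr1a and Htr1d peaked in different ones. Htr1a was highest in cluster 8, led by Col24a1 and Nos1, with 17.2 CPM (10.2 to 27.2) in the injured and 14.0 CPM (8.32 to 22.2) in the naive library. Cluster 1, led by Pamr1 and Crym, came next at 9.09 CPM injured and 13.2 CPM naive. At these counts, the order below the top is loose: only 7 of the 18 other clusters lay below cluster 8 with separate intervals in both libraries, and cluster 2.2 had 0 UMIs. Htr1d was highest in cluster 3, led by Mlxipl and Efhd1, with 16.0 CPM (10.8 to 22.8) in the injured and 19.4 CPM (13.6 to 27.1) in the naive library. Cluster 6 (13.2 CPM injured, 19.6 CPM naive), cluster 14 (13.0 CPM injured, 13.1 CPM naive) and cluster 5 (7.93 CPM injured, 19.3 CPM naive) overlapped with it, while clusters 2.2 and 2.3 had 0 Htr1d UMIs in both libraries. Of the excitatory-like clusters, number 17 (led by Cck, Megf11 and Tac1) was the highest for Htr1d, at 5.62 CPM injured and 13.3 CPM naive.

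Htr1f, the Gi/o-coupled receptor that the migraine drug lasmiditan binds, was the exception among the 3 members of its family. Outside the members, the family's Htr1b was also lower in inhibitory-like nuclei (15 UMIs injured, 12 naive). Its inhibitory over excitatory ratios were 0.203 injured and 0.121 naive. Htr1f had 37.3 CPM injured and 28.8 CPM naive in inhibitory-like nuclei, lower than the 63.4 CPM injured and 54.3 CPM naive in excitatory-like nuclei. The inhibitory over excitatory ratio was 0.588 (0.525 to 0.659) in the injured and 0.530 (0.467 to 0.603) in the naive library, short of the 2-fold mark. These class means covered large gaps between clusters. Excitatory-like cluster 17 had 223 CPM (185 to 267) in the injured and 279 CPM (236 to 328) in the naive library, inhibitory-like cluster 14 (led by Atp10a and Crabp1) had 226 CPM injured and 186 CPM naive, and inhibitory-like cluster 2.2 (with Foxp2 among its leading genes) had 195 CPM injured and 154 CPM naive. The other 16 clusters lay below cluster 17 with separate intervals in both libraries. Cluster 8, where Htr1a peaked, was the lowest for Htr1f at 11.5 CPM injured and 8.58 CPM naive.

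The Gq-coupled pair Htr2a and Htr2c went opposite ways between the classes. Htr2a, the receptor of the classical psychedelic drugs, had 14.7 CPM in injured and 12.9 CPM in naive inhibitory-like nuclei, against 28.5 CPM injured and 26.8 CPM naive in excitatory-like nuclei, ratios of 0.516 (0.433 to 0.615) in the injured and 0.480 (0.398 to 0.579) in the naive library. It reached 2-fold lower in the naive library only, so it is not counted above. Htr2c, whose transcript is known for RNA editing, had 800.4 CPM (15838 UMIs) in injured and 693 CPM (13333 UMIs) in naive inhibitory-like nuclei, against 345 CPM injured and 292 CPM naive in excitatory-like nuclei. Its class ratio was 2.32 (2.23 to 2.42) in the injured and 2.38 (2.28 to 2.49) in the naive library.

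Htr2c varied more between clusters than between classes. In cluster 1 it reached 1784 CPM (1731 to 1838) in the injured and 1621 CPM (1576 to 1668) in the naive library. Clusters 9 (led by Tac2 and Bcam; 1701 CPM injured and 1465 CPM naive) and 2.3 (led by Tfap2b; 1663 CPM injured and 1387 CPM naive) overlapped with cluster 1 in at least 1 library, and 16 clusters lay below it. Excitatory-like cluster 17 was also high, with 1451 CPM injured and 1027 CPM naive. At the other end, inhibitory-like cluster 14 had 35.7 CPM (24.6 to 50.2) in the injured and 31.8 CPM (22.1 to 44.5) in the naive library, excitatory-like cluster 18 (led by Esr1 and Th) had 57.4 CPM injured and 29.3 CPM naive, and inhibitory-like cluster 11 (led by Mgmt and Cdh3) had 80.3 CPM injured and 36.7 CPM naive. Cluster 14 was thus among the top clusters for Htr1f and at the bottom for Htr2c, and both classes held clusters at either end of the Htr2c range.

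Htr2a was highest in inhibitory-like cluster 13 (led by Pax5 and Rxfp2), with 57.2 CPM (44.3 to 72.6) in the injured and 53.9 CPM (41.1 to 69.6) in the naive library, and in excitatory-like cluster 7 (led by Moxd1), with 54.8 CPM injured and 49.3 CPM naive. These levels overlap, while 14 clusters lay below cluster 13 in both libraries. Cluster 8 carried 37.3 CPM injured and 29.6 CPM naive. In clusters 3 and 6, where Htr1d was high, Htr2a was lowest, at 2.67 CPM injured and 0.556 CPM naive in cluster 3 and at 1.20 CPM injured and 1.45 CPM naive in cluster 6.

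**Figure D2:**
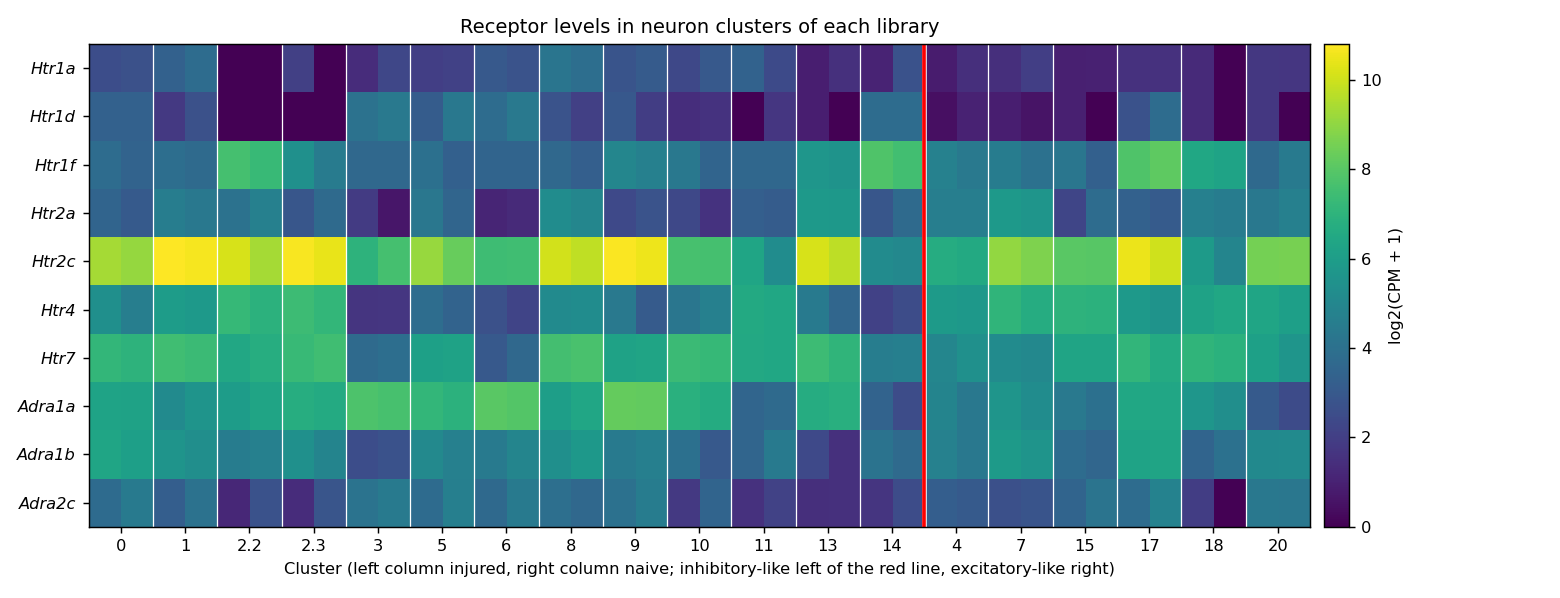
Level of each receptor gene as log2(CPM + 1) (colour) in 19 neuron clusters (x axis), with the injured library in the left and the naive library in the right column of each cluster and inhibitory-like clusters left of the red line. Htr2c is bright in clusters 1, 9 and 2.3 and dark in cluster 14, at 35.7 CPM injured and 31.8 CPM naive, where Htr1f is bright at 226 CPM injured and 186 CPM naive.

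The Gs-coupled receptors Htr4 and Htr7 were split between the classes. Htr4 had the lowest class ratio of the members, with 45.1 CPM injured and 33.6 CPM naive in inhibitory-like nuclei, against 94.6 CPM injured and 79.9 CPM naive in excitatory-like nuclei. The inhibitory over excitatory ratio was 0.477 (0.433 to 0.526) in the injured and 0.421 (0.377 to 0.470) in the naive library. Htr7 went the other way, with 108 CPM injured and 106 CPM naive in inhibitory-like and 55.5 CPM injured and 53.7 CPM naive in excitatory-like nuclei, ratios of 1.94 (1.76 to 2.15) in the injured and 1.97 (1.78 to 2.20) in the naive library. It stayed just under the 2-fold mark in both libraries.

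By cluster, Htr4 was highest in the inhibitory-like clusters 2.3, with 167 CPM (137 to 203) in the injured and 140 CPM (102 to 187) in the naive library, and 2.2, with 152 CPM injured and 121 CPM naive. The excitatory-like clusters 7 (133 CPM injured, 102 CPM naive) and 15 (125 CPM injured, 122 CPM naive) overlapped with them, so the class difference did not hold in every cluster. Htr4 was lowest in clusters 3 (2.13 CPM injured, 2.22 CPM naive), 14 (3.25 CPM injured, 4.68 CPM naive) and 6 (5.39 CPM injured, 3.63 CPM naive). Htr7 peaked in cluster 8 with 189 CPM (163 to 217) in the injured and 205 CPM (181 to 231) in the naive library, close to clusters 1 (179 CPM injured, 166 CPM naive), 2.3 (153 CPM injured, 180 CPM naive) and 10 (led by Nxph2; 166 CPM injured and 150 CPM naive). It too was lowest in clusters 6 (7.19 CPM injured, 11.6 CPM naive) and 3 (12.3 CPM injured, 13.9 CPM naive). Clusters 3 and 6 therefore had little of either Gs-coupled receptor in both libraries, beside the highest Htr1d.

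Of the alpha-1 adrenoceptors, Adra1a favoured inhibitory-like nuclei and Adra1b did not favour either class. Adra1a had 117 CPM (2308 UMIs) in injured and 107 CPM (2059 UMIs) in naive inhibitory-like nuclei, against 35.7 CPM injured and 27.2 CPM naive in excitatory-like nuclei. Its class ratio was 3.26 (2.89 to 3.70) in the injured and 3.93 (3.42 to 4.54) in the naive library. Adra1b had 31.9 CPM injured and 32.0 CPM naive in inhibitory-like and 34.4 CPM injured and 29.2 CPM naive in excitatory-like nuclei, with ratios of 0.928 (0.806 to 1.07) in the injured and 1.09 (0.939 to 1.28) in the naive library. Both of those intervals include 1, and they reach from 0.806 to 1.28.

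Adra1a was highest in cluster 9, with 305 CPM (274 to 339) in the injured and 293 CPM (261 to 328) in the naive library, followed by cluster 6 (led by Foxo1 and Rspo3) at 258 CPM injured and 243 CPM naive and cluster 3 at 219 CPM injured and 198 CPM naive. Only cluster 6 overlapped with cluster 9. The lowest levels were in excitatory-like cluster 20 (led by Nms and Tshr), at 7.22 CPM injured and 4.596 CPM naive, and in inhibitory-like clusters 14 (9.74 CPM injured, 4.68 CPM naive) and 11 (10.4 CPM injured, 12.2 CPM naive). Adra1b had its own order, with 75.0 CPM injured and 77.9 CPM naive in excitatory-like cluster 17 and 80.3 CPM injured and 67.3 CPM naive in inhibitory-like cluster 0 (led by Igf1 and Nox4). In cluster 3, one of the highest for Adra1a, Adra1b had 4.80 CPM injured and 5.56 CPM naive.

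Adra2c, the Gi/o-coupled alpha-2 member, had few UMIs in both classes. It stood at 9.05 CPM (179 UMIs) in injured and 15.2 CPM (292 UMIs) in naive inhibitory-like nuclei, and 7.70 CPM (64 UMIs) in injured and 9.53 CPM (76 UMIs) in naive excitatory-like nuclei. The class ratio was 1.18 (0.878 to 1.59) in the injured and 1.59 (1.23 to 2.08) in the naive library, so the interval excludes 1 in the naive library alone. No cluster lay below the top cluster, number 17 (13.1 CPM injured, 26.6 CPM naive), with separate intervals in both libraries. Low values stood in clusters 13 (1.71 CPM injured, 1.83 CPM naive), 11 (1.89 CPM injured, 3.34 CPM naive) and 18 (2.94 CPM injured, and 0 UMIs naive).

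**Figure D3:**
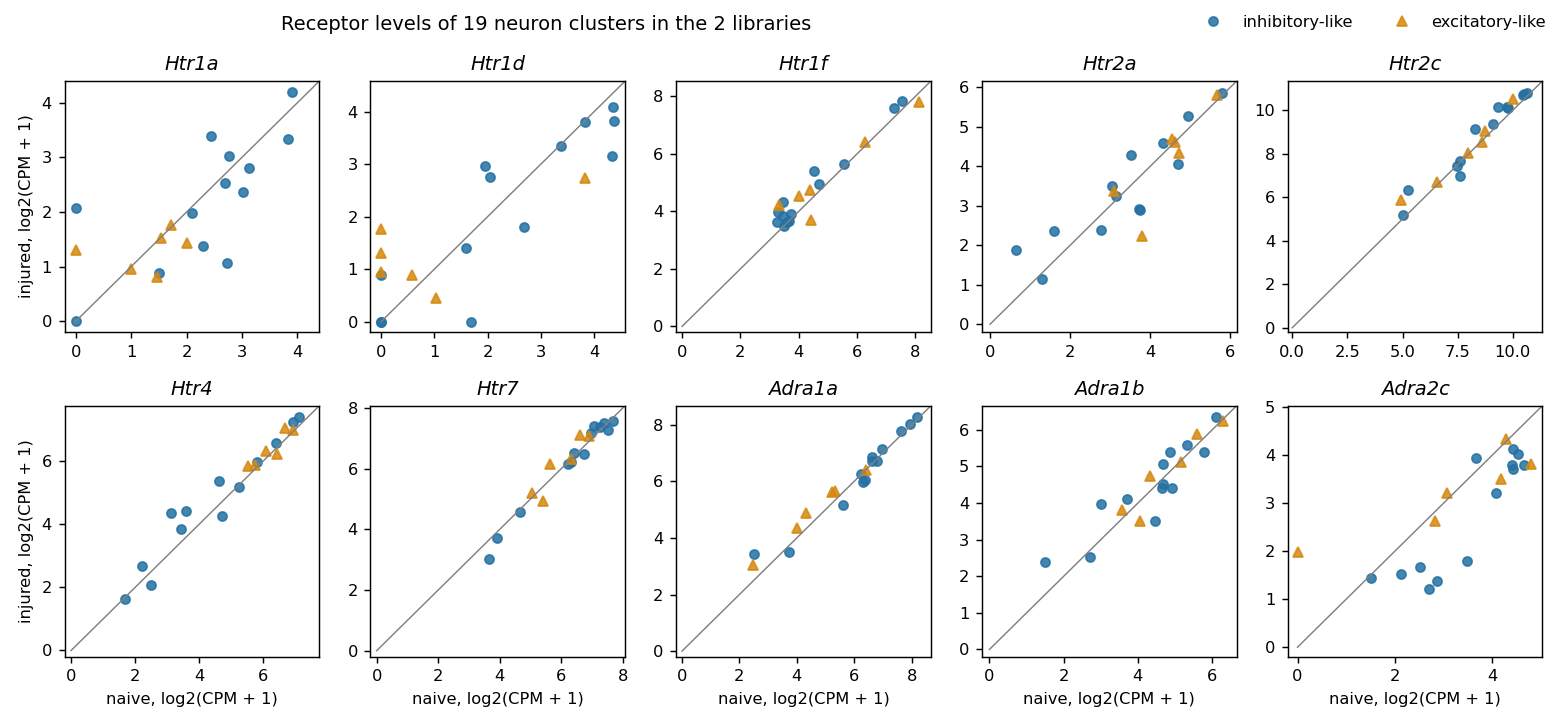
Level of each receptor gene in 19 neuron clusters as log2(CPM + 1), with the injured library on the y axis and the naive library on the x axis; circles are inhibitory-like and triangles excitatory-like clusters, and the grey line marks equal levels. The order of clusters is close in the libraries for Htr1f, Htr2c, Htr4, Htr7 and Adra1a, and 12 of the 13 inhibitory-like clusters lie below the line for Adra2c.

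The share of nuclei with a UMI put these levels on the scale of nuclei. Htr2c had a UMI in 69.0% (67.0 to 70.8) of injured and 67.1% (65.3 to 68.9) of naive inhibitory-like nuclei, and in 57.3% of injured and 49.8% of naive excitatory-like nuclei. Adra1a (47.0% injured, 42.8% naive) and Htr7 (45.3% injured, 41.1% naive) came next in the inhibitory-like class, and Htr4 (50.3% injured, 40.9% naive) in the excitatory-like class. In oligodendrocyte-like nuclei, taken as a background and shallower (medians of 2593 UMIs in 45 injured and 2147 in 42 naive nuclei, beside 7930 in injured and 6721 in naive inhibitory-like nuclei), Htr2c had a UMI in 2.22% of injured and 4.76% of naive nuclei. Htr1a, Htr1d, Htr2a, Htr4 and Adra2c had 0 UMIs there in both libraries, and the floor of 3 counts used here for a count of 0 is 6.67% of the 45 injured and 7.14% of the 42 naive nuclei.

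With each nucleus thinned to 2000 UMIs, Htr2c had a UMI in 49.4% of injured and 48.3% of naive inhibitory-like nuclei, Adra1a in 18.8% injured and 18.9% naive, and Htr7 in 16.8% injured and 17.1% naive. Thinned shares of the other members were lower, from 1.01% injured and 1.57% naive for Htr1a up to 6.18% injured for Htr4 and 6.16% naive for Adra1b. Against the oligodendrocyte-like nuclei, the levels of Htr2c, Htr7 and Adra1a lay above the background intervals in both libraries and Htr4 in the injured library, while those intervals, which rest on few nuclei, held the inhibitory-like levels of Htr1a, Htr1d, Htr1f, Htr2a, Adra1b and Adra2c in both libraries and of Htr4 in the naive library. In those cases this small background could not decide whether the inhibitory-like class level lay above it. Even a gene with 0 oligodendrocyte-like UMIs had an interval that ended at 26.6 CPM injured and 35.4 CPM naive. Single clusters and the other class could differ from the inhibitory-like class in this. The oligodendrocyte-like intervals of Htr1f ended at 40.2 CPM injured and 53.5 CPM naive. Inhibitory-like cluster 14 (226 CPM injured, 186 CPM naive) and the excitatory-like class (63.4 injured, 54.3 naive) lay above them. Inhibitory-like cluster 8, the lowest, did not (11.5 injured, 8.58 naive). The thinned share of Htr1f was 5.13% injured and 3.47% naive in inhibitory-like nuclei, against 3.03% injured and 3.45% naive in oligodendrocyte-like nuclei. Adra1b, at 5.35% injured and 6.16% naive in inhibitory-like nuclei, did not exceed the oligodendrocyte-like share of 6.06% injured and 6.90% naive, where it rested on 5 UMIs injured and 2 naive in all. Its level there was 36.1 CPM (11.7 to 84.2) in the injured and 19.2 CPM (2.33 to 69.4) in the naive library, while its neuron clusters ranged from 4.27 to 80.3 CPM in the injured and from 1.83 to 77.9 CPM in the naive library. Counting members per thinned nucleus, inhibitory-like nuclei had a mean of 1.08 members in both libraries, and 7.36% of injured and 6.94% of naive nuclei had 3 or more. Excitatory-like nuclei had means of 0.883 injured and 0.744 naive, with 3 or more members in 5.78% injured and 3.35% naive.

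CSF-contacting neuron-like nuclei, 48 injured and 106 naive nuclei marked by Pkd2l1, shared some levels with the larger classes. Adra1a was at 132 CPM (42 UMIs) in the injured and 130 CPM (73 UMIs) in the naive library, with a UMI in 47.9% of injured and 43.4% of naive nuclei. Inhibitory-like nuclei were close, at 117 CPM injured and 107 CPM naive, with a UMI in 47.0% and 42.8%. Htr4 was at 75.4 CPM (24 UMIs) in the injured and 99.4 CPM (56 UMIs) in the naive library. Excitatory-like nuclei had 94.6 CPM injured and 79.9 CPM naive, and inhibitory-like nuclei 45.1 and 33.6 CPM. Htr7 was low in CSF-contacting neuron-like nuclei, at 6.28 CPM injured and 10.7 CPM naive. Its intervals ended at 22.7 CPM injured and 23.2 CPM naive, beside levels of 108 CPM injured and 106 CPM naive in inhibitory-like nuclei. Htr1a had 0 UMIs in CSF-contacting neuron-like nuclei of both libraries, where the floor of 3 counts is 9.42 CPM in the injured and 5.33 CPM in the naive library. Htr2c (207 CPM injured, 126 CPM naive) lay in few of the CSF-contacting neuron-like nuclei, with a UMI in 14.6% of injured and 12.3% of naive nuclei.

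Nuclei that held a peptide transcript differed in their receptors from the nuclei of the same class that held none. Populations were nuclei with at least 2 UMIs of the peptide gene, and needed 50 nuclei in each library. In inhibitory-like nuclei with Gal, the galanin gene (575 injured and 854 naive nuclei), Adra1a had 168 CPM injured and 132 CPM naive against 94.8 CPM injured and 95.1 CPM naive in nuclei without Gal, ratios of 1.77 (1.61 to 1.94) in the injured and 1.39 (1.26 to 1.53) in the naive library. Adra2c was also higher there, with ratios of 2.27 (1.58 to 3.26) in the injured and 2.08 (1.58 to 2.75) in the naive library, and Htr1d with 1.95 (1.28 to 2.94) in the injured and 1.92 (1.32 to 2.80) in the naive library. In contrast, Htr1f (0.311 injured, 0.337 naive), Htr4 (0.422 injured, 0.502 naive), Htr2c (0.541 injured, 0.603 naive) and Htr7 (0.566 injured, 0.690 naive) were lower with Gal, and none of these intervals reached 1. The Gal population thus had the noradrenaline receptors Adra1a and Adra2c and the serotonin receptor Htr1d at higher levels in both libraries. The 4 other serotonin receptors named here were at lower levels.

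Nuclei that still held Pdyn transcripts showed part of the same arrangement. Among inhibitory-like nuclei with Pdyn (100 injured and 106 naive), Adra1a was at 168 CPM in each library against 110.1 CPM injured and 98.4 CPM naive in nuclei without, ratios of 1.52 (1.28 to 1.81) in the injured and 1.70 (1.41 to 2.05) in the naive library. Htr7 (0.394 injured, 0.513 naive), Htr4 (0.398 injured, 0.371 naive), Htr1f (0.453 injured, 0.343 naive) and Htr2c (0.735 injured, 0.327 naive) were lower. For Htr2c the libraries stood apart here, with 633 CPM in injured and 249 CPM in naive Pdyn nuclei, against 862 CPM injured and 763 CPM naive in nuclei without Pdyn. Adra1b had a ratio of 2.10 (1.57 to 2.78) in the injured and of 0.747 (0.439 to 1.19) in the naive library, and the interval of the second includes 1. In excitatory-like nuclei with Pdyn (69 injured and 61 naive), Htr1f stood at 17.9 CPM injured and 14.9 CPM naive against 75.7 CPM injured and 67.1 CPM naive without, ratios of 0.236 (0.128 to 0.400) in the injured and 0.223 (0.101 to 0.427) in the naive library, and Htr2c had ratios of 0.449 injured and 0.535 naive.

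Other peptide populations had other receptors. Nuclei with Tac2, which encodes neurokinin B (87 injured and 75 naive inhibitory-like nuclei), held Adra1a at 311 CPM injured and 287 CPM naive against 107 CPM injured and 99.2 CPM naive without Tac2, a ratio of 2.90 in each library (2.54 to 3.31 injured, 2.47 to 3.37 naive), and Htr2c at 1739 CPM injured and 1459 CPM naive against 762 CPM injured and 661 CPM naive. Nuclei with Cartpt, the gene of the CART peptide (109 injured, 108 naive nuclei), stood out for Adra1b, with 116 CPM injured and 107 CPM naive against 26.5 CPM injured and 27.9 CPM naive, ratios of 4.40 (3.53 to 5.44) in the injured and 3.84 (3.00 to 4.87) in the naive library. With Penk, the enkephalin precursor (179 injured, 260 naive nuclei), Htr2c (1.52 injured, 1.99 naive) and Htr7 (1.58 injured, 1.66 naive) were higher. With Pnoc, the nociceptin precursor (370 injured, 522 naive nuclei), Adra1b (1.98 injured, 2.03 naive) and Htr1a (2.29 injured, 1.89 naive) were higher and Htr1f (0.452 injured, 0.315 naive) lower.

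Among excitatory-like nuclei, Tac1 and Penk marked opposite receptor sets. With Tac1, the substance P gene (83 injured and 134 naive nuclei), Htr1f had 151 CPM injured and 171 CPM naive against 46.7 CPM injured and 26.8 CPM naive without, ratios of 3.24 (2.59 to 4.02) in the injured and 6.38 (5.14 to 7.92) in the naive library. Htr2c (2.44 injured, 1.61 naive) and Htr7 (2.01 injured, 1.57 naive) were also higher, and Htr2a was lower at 5.22 CPM injured and 10.97 CPM naive against 30.8 CPM injured and 30.1 CPM naive. With Penk (239 injured, 293 naive nuclei), Htr2a was higher, with ratios of 2.35 (1.73 to 3.22) in the injured and 2.61 (1.86 to 3.71) in the naive library, while Htr1f (0.161 injured, 0.196 naive) and Htr7 (0.351 injured, 0.5 naive) were lower. Htr2c was lower as well, at 0.783 injured and 0.658 naive, so all 4 of these members lay on opposite sides of 1 in the Tac1 and Penk populations. Nuclei of a population may share a cluster as well as a peptide. Median UMIs per nucleus ranged from 7387 to 11050 in injured and from 6380 to 9612 in naive populations, beside 7808 to 10140 in injured and 6590 to 8292 in naive nuclei without the peptide.

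**Figure D4:**
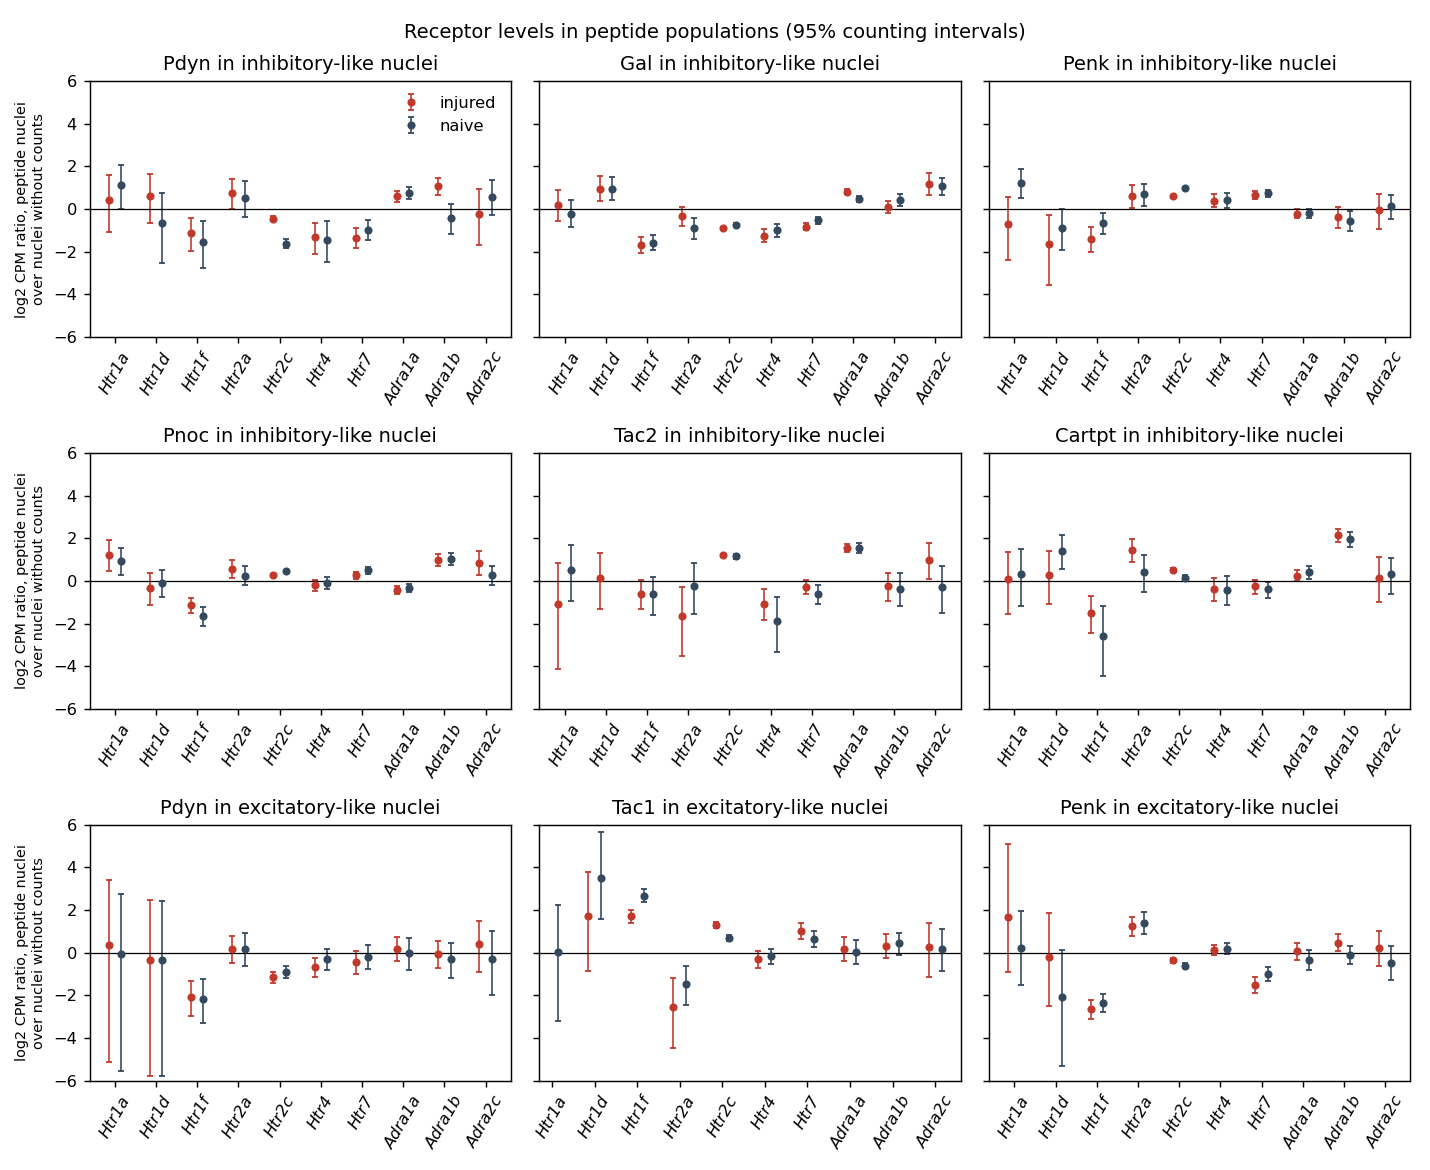
Log2 ratio of CPM in nuclei with at least 2 UMIs of a peptide gene over nuclei of the same class with none (y axis), for 10 receptor genes (x axis) in 6 inhibitory-like and 3 excitatory-like populations; red is the injured and dark the naive library, and bars are 95% counting intervals. A point is left out where a population has 0 UMIs; Adra1b is high with Cartpt, at ratios of 4.40 injured and 3.84 naive, and Htr1f is high with Tac1 and low with Penk in excitatory-like nuclei.

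Between the libraries, the members of inhibitory-like nuclei went both ways. Called here means at least 25% higher, or a ratio of 0.8 or less, with at least 100 UMIs in the class. Htr4 and Htr1f were higher and Adra2c, Htr1d and Htr1a lower in the injured library, 5 of the 10 members, where 14.7% of 12922 genes were called either way, 2.39% higher and 12.3% lower. At 1.5-fold, 1 member remained, Adra2c, beside 2.55% of all genes either way, 0.402% higher and 2.14% lower. The median log2 ratio of the 10 members was 0.07, beside a median of -0.08 over all genes, of which the middle 90% lay between -0.46 and 0.21.

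Adra2c had the lowest ratio of the members, 0.596 (0.492 to 0.720), at 9.05 CPM in the injured and 15.2 CPM in the naive library. It was lower in 12 of the 13 inhibitory-like clusters, with an interval below 1 in clusters 0, 1, 5 and 10, and remained called under each of the 11 alternative settings tried. Htr1d followed at 0.736 (0.582 to 0.929), with 6.62 CPM injured and 8.99 CPM naive, and Htr1a at 0.792 (0.603 to 1.04), with 5.10 CPM injured and 6.45 CPM naive, whose interval includes 1. In nuclei with Xist but no Y-linked UMIs, the log2 ratios of Htr1d and Htr1a were -0.21 and -0.13, no longer past the fold. In nuclei with only Y-linked UMIs they were -0.96 and -0.99. Each subset held only part of the 131 injured and 173 naive UMIs of Htr1d and the 101 and 124 of Htr1a. Xist was seen in 1535 of 2290 injured and 1812 of 2687 naive nuclei, so those with only Y-linked UMIs were fewer. The subset values carry no interval, and the difference between subsets was not tested. The Htr1a call also ended with the same cluster weights in both libraries (log2 ratio -0.21), with the median of gene-wise ratios as scaling (-0.25) and without the 10% of nuclei with most UMIs (-0.32, beside -0.34 in all).

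Htr4 had the highest ratio, 1.34 (1.21 to 1.49), with 45.1 CPM in the injured and 33.6 CPM in the naive library, and was higher in 9 of 13 clusters, with an interval above 1 in clusters 0 and 9. Htr1f had 37.3 CPM injured and 28.8 CPM naive, a ratio of 1.30 (1.16 to 1.45), and was higher in all 13 inhibitory-like clusters, although no cluster's own interval excluded 1. As for Htr1a, neither call held when a cluster had the same weight in the injured as in the naive library. The log2 ratios were then 0.28 for Htr4 and 0.27 for Htr1f, short of a call, beside 0.42 and 0.37. Leaving out the 10% of nuclei with most UMIs likewise brought both short of a call, at 0.25 and 0.24. The part of cluster make-up in these ratios was not tested.

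Htr2c, with far more UMIs than any other member, was 1.16-fold higher (1.13 to 1.18) in the injured library, short of the fold but with an interval clear of 1. It was higher in 11 of 13 inhibitory-like clusters, with an interval above 1 in 9 of them, such as cluster 5 (561 CPM in the injured and 312 CPM in the naive library) and cluster 2.2 (1136 CPM injured, 651 CPM naive). Cluster 3 went the other way, at 125 CPM injured and 196 CPM naive. Adra1a (ratio 1.09, 1.03 to 1.16) was slightly higher, while Htr7 (1.02, 0.957 to 1.08), Adra1b (0.999, 0.893 to 1.12) and Htr2a (1.14, 0.960 to 1.36) had intervals that include 1.

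In excitatory-like nuclei, 8 members had 100 UMIs, and Adra1a alone was called, with 35.7 CPM in the injured and 27.2 CPM in the naive library, a ratio of 1.31 (1.10 to 1.57). That is 1 of 8 members, higher, where 15.4% of 11010 genes were called either way, 1.80% higher and 13.6% lower. At 1.5-fold 0 members were called, beside 2.67% of all genes either way, 0.154% higher and 2.52% lower. Adra1a was higher in all 6 excitatory-like clusters, with an interval above 1 in cluster 4 (28.1 CPM injured, 18.9 CPM naive). Its log2 ratio was 0.08 in nuclei with Xist but no Y-linked UMIs and 1.31 in nuclei with Y-linked but no Xist UMIs, beside 0.39 in all. The 2 kinds are from different mice, and each held only part of the 297 injured and 217 naive Adra1a UMIs. Their values carry no interval, and the difference between them was not tested. Htr2c (1.18, 1.12 to 1.249), Htr4 (1.18, 1.07 to 1.32) and Htr1f (1.17, 1.03 to 1.33) were higher by less than the fold, with intervals clear of 1. Htr7 (1.03), Htr2a (1.06), Adra1b (1.18) and Adra2c (0.808) had intervals that include 1, and Htr1a and Htr1d had at most 15 UMIs a library. The median log2 ratio of the 8 members was 0.23, beside -0.08 over all genes.

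**Figure D5:**
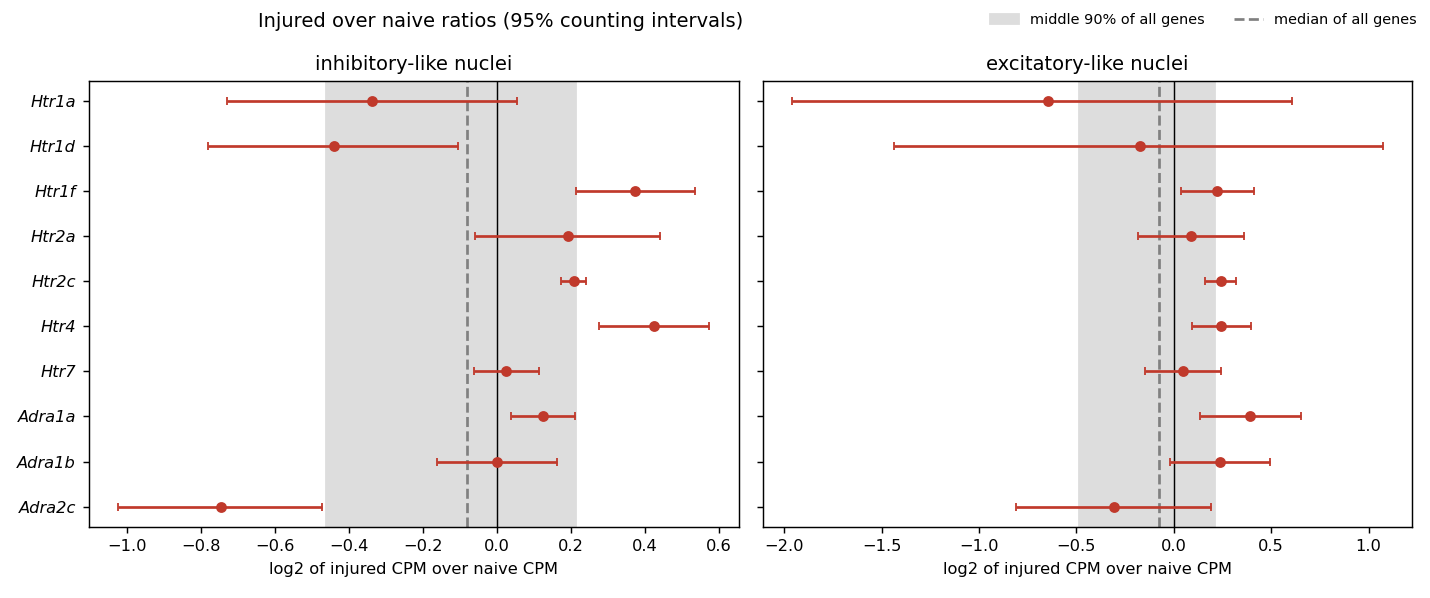
Log2 of the injured over the naive CPM (x axis) for each receptor gene in inhibitory-like (left) and excitatory-like nuclei (right, with a wider axis); points are ratios of summed counts, bars 95% counting intervals, the grey band holds the middle 90% of all genes and the dashed line their median. In inhibitory-like nuclei Adra2c (-0.75) lies below and Htr4 (0.42) and Htr1f (0.37) above the band.

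The members called lower were those with the shortest gene spans. Over all genes of inhibitory-like nuclei, those that span under 25 kb had a median log2 ratio of -0.17, with 21.7% called lower and 1.40% higher, and those of 65 kb and over had 0.03, with 2.74% called lower and 4.98% higher. In excitatory-like nuclei the medians were -0.17 for the short and 0.02 for the long genes. The 3 members called lower, Adra2c, Htr1a and Htr1d, span 3.45, 4.48 and 20.9 kb, and the other 7 span 68.7 kb or more. The bounds of 25 and 65 kb were chosen after the data were seen, and the part of this trend in the members' differences was not tested. The injured library was also the deeper one, by median UMIs per nucleus.

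The other receptors of the 2 families were mostly too rare to compare. Of 14 serotonin receptor genes, 9 had 100 UMIs in inhibitory-like nuclei, 2 called higher and 3 lower. All of those called were members but Htr5b, a Gi/o-coupled receptor gene. It was lower, with 1.52 CPM (30 UMIs) in the injured and 4.57 CPM (88 UMIs) in the naive library. In excitatory-like nuclei 7 had 100 UMIs and 0 were called, and Htr5b stood at 13.7 CPM injured and 13.3 CPM naive. Of 8 adrenergic receptor genes, 4 had 100 UMIs in each class, and those called were the members Adra2c (inhibitory-like, lower) and Adra1a (excitatory-like, higher). Over all genes, 2.39% were called higher and 12.3% lower in inhibitory-like nuclei, and 1.80% higher and 13.6% lower in excitatory-like nuclei. Adra2a, the main spinal target of clonidine, favoured excitatory-like nuclei: it had 0.657 CPM (13 UMIs) in injured and 0.728 CPM (14 UMIs) in naive inhibitory-like nuclei, against 7.34 CPM injured and 7.65 CPM naive (61 UMIs each) in excitatory-like nuclei. Htr3a, a subunit of the ion channel receptor, had 3 UMIs in injured and 2 in naive inhibitory-like nuclei.

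Few genes of the downstream pathways were called between the libraries. Of 9 Gq pathway genes with 100 UMIs in inhibitory-like nuclei, 0 were called higher and 1 lower (Gna11, ratio 0.614, 0.529 to 0.711), and in excitatory-like nuclei 0 of 9 were called. Of 8 Gi/o pathway genes, 1 was called lower in each class (Gnai2, 0.784 in inhibitory-like and 0.755 in excitatory-like nuclei). Of 18 Gs pathway genes, the adenylate cyclase gene Adcy2 was called higher in inhibitory-like nuclei (1.27, 1.18 to 1.37) and the protein kinase A subunit gene Prkar1a lower in excitatory-like nuclei (0.791, 0.698 to 0.896). Of 7 receptor kinases and arrestins, Adrbk1, the kinase that desensitizes adrenergic receptors, was called lower in both classes (0.702 inhibitory-like, 0.788 excitatory-like). Of the dopamine receptors, Drd3 was called higher (1.41, 1.02 to 1.95) among 2 in inhibitory-like nuclei and 0 of 1 in excitatory-like nuclei. Of the genes of monoamine synthesis, transport and breakdown, Maob was called lower (0.535, 0.351 to 0.807) among 4 in inhibitory-like nuclei and 0 of 6 in excitatory-like nuclei. These counts are to be read beside the 14.7% and 15.4% of all genes called.

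Between the classes, genes of the Gq pathway were called both ways. Plcb1, the phospholipase C gene, was 2.65-fold higher in inhibitory-like than in excitatory-like nuclei in both libraries and the protein kinase C gene Prkca 3.07-fold higher in the injured and 3.13-fold in the naive library, while the calcium store channel genes Itpr1 (0.181 injured, 0.168 naive) and Itpr2 (0.211 injured, 0.213 naive) were lower. That is 2 higher and 2 lower of 10 Gq genes, and this count and those that follow are to be read beside the 7.86% of all genes called between the classes, 3.69% higher and 4.17% lower. The potassium channel gene Kcnj3, which Gi/o proteins open, was 2.47-fold higher in the injured and 2.69-fold in the naive library, the 1 called of 8 Gi/o genes. Of 18 Gs genes, Adcy8 was called higher (2.04 injured, 2.14 naive) and the phosphodiesterase gene Pde4d lower (0.497 injured, 0.472 naive), and of 7 receptor kinases and arrestins, Adrbk2 higher (2.02 injured, 2.08 naive). Among the genes of monoamine handling, 3 of 7 were called lower, including Th (0.0214 injured, 0.0394 naive) and Ddc (0.169 injured, 0.114 naive), which make dopamine, and of 2 dopamine receptors Drd2 was lower (0.293 injured, 0.259 naive).

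Across the 19 clusters, the pair of members with the most opposed patterns was Htr1d and Htr4, with Pearson's r of log2(CPM + 1) of -0.81 in the injured and -0.73 in the naive library. Htr1d and Adra2c (0.63 injured, 0.56 naive), and Htr4 and Htr7 (0.56 injured, 0.55 naive), ran together. Values of r with Htr1d or Adra2c rest in part on clusters with few UMIs. In cluster 2.2, Htr1d had 0 UMIs in both libraries, and Adra2c had 1 injured and 2 naive. The genes whose patterns were most like a member's, by the smaller r of the 2 libraries, were Adam11 for Htr4 (0.91 in both), Msi1 for Htr1d (0.89 injured, 0.88 naive), Ivns1abp for Htr1f (0.85 in both), Fam65b for Htr7 (0.80 injured, 0.82 naive), Eml6 for Adra1a (0.80 injured, 0.82 naive), Slc35d3 for Htr1a (0.75 injured, 0.79 naive) and Deptor for Htr2c (0.74 injured, 0.75 naive). Chst8 for Adra2c (0.82 injured, 0.72 naive), Syn2 for Htr2a (0.69 injured, 0.71 naive) and Prr16 for Adra1b (0.64 injured, 0.71 naive) came at lower values. These r are descriptions over clusters of the same 2 libraries, which share depth and base composition, and the genes named were picked as the highest.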

How the data were processed

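Single-nucleus RNA-seq libraries (10x Genomics 3′ version 3 chemistry, per the labels' protocols) were made from 1 injured and 1 naive pool of 8 mice each. The submitters' processing notes name Cell Ranger 3.0.2, Seurat and the mm10 genome. No source used here says whether intron reads were counted. The deposited UMI counts per gene and nucleus were used as the authors left them, and every gene was found in 4 or more nuclei, every nucleus with 514 or more genes. The deposited normalized tables, 1 per library, hold natural log values, ln(1 + 10000 × count / total of the nucleus), which matched the counts to within 6e-15 and were used for the alternative that gives each nucleus the same weight. A further normalized table of both libraries was not used here.

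Nuclei of both libraries were clustered together with scanpy 1.11.5 (2000 variable genes, 30 principal components, 15 neighbours, Leiden resolution 1.0), with monoamine receptor, peptide, activity, sex-linked and mitochondrial genes among 124 genes kept out, and with no batch correction. Clusters 2 and 12, which mixed transmitter genes, were split again at a resolution of 0.5. Clusters were named from transmitter and glial markers at thresholds set after the data were seen (inhibitory over excitatory markers at least 10-fold, or excitatory over inhibitory at least 4-fold, with at least 3 markers detected). A rebuilt name may differ from the study's own. Doublets were not removed; leaving out nuclei that held Xist together with Y-linked UMIs was an alternative. UMIs were summed by class, cluster and library and divided by the class total (CPM). Levels carry exact Poisson, shares exact binomial (Clopper-Pearson) and ratios exact conditional binomial intervals at 95%, which cover counting error only; with 1 library a group no test was made (SciPy 1.17.1, NumPy 2.4.6, pandas 2.3.3). Calls were ratios at least 25% higher, or of 0.8 or less, between libraries and folds of 2 between classes in both libraries, with at least 100 UMIs. The interval and the call between libraries were tried on inhibitory-like counts simulated with counting error only. That trial covered neither the class calls nor differences between mice and between nuclei. Thinning to 2000 UMIs left out 32 injured and 61 naive nuclei.

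All 10 members are named, with the 3 genes nearest to each in pattern over 19 clusters of at least 30 nuclei in each library, of which the text gives the first, the other receptors of both families, and at most the 2 highest and 2 lowest genes of each further list. The members, lists and tests were chosen with earlier results of these data known.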

Additional observations from a re-analysis of the deposited data

Results flagged for a closer look

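Htr2c in inhibitory-like cluster 3 (led by Mlxipl and Efhd1) was lower in the injured than in the naive library, at 125 CPM injured and 196 CPM naive, a ratio of 0.636, while its counting interval lay above 1 in 9 of the other 12 inhibitory-like clusters. It was singled out because clusters of the same class went opposite ways under the same contrast. The difference between clusters was not tested, since each library is 1 pool.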

How the results depend on the processing

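Of the 3 counts of called members, that between classes kept its 5 members or stayed within 1.5 times of it under all alternatives but the fold of 3, which gave 3. In inhibitory-like nuclei, 5 members were called between the libraries; the count was 2 with each cluster weighted alike in the injured and the naive library, 3 with each nucleus given the same weight, 1 at a fold of 1.5, 3 in nuclei with only Xist UMIs, and 2 without the 10% of nuclei with most UMIs. In excitatory-like nuclei, 1 was called; the count was 0 at a fold of 1.5, 2 with the class taken from each nucleus's own transmitter genes, with each nucleus given the same weight, with no minimum of 100 UMIs, in nuclei with only Xist UMIs and without nuclei that had both Xist and Y-linked UMIs, and 3 for nuclei in which Y-linked but no Xist UMIs were found, thinned to 2000 UMIs and without the 10% of nuclei with most UMIs. Of the 11 alternatives, Adra2c kept its call in 11, Htr1d in 9, Htr1a and Htr4 in 6 and Htr1f in 5 in inhibitory-like nuclei, and Adra1a kept its call in 9 in excitatory-like nuclei. The causes were not tested. No called member reversed. Of 40 member values, 25 moved past their counting interval in nuclei with only Y-linked UMIs, 15 when thinned, 10 with the class from own transmitter genes, 10 without the 10% of nuclei with most UMIs, 9 in nuclei with only Xist UMIs, 6 with each nucleus given the same weight, and 1 or 2 under each of the others. No paired analysis was possible because each group is 1 pooled library, and for the same reason no library could be left out. The depth limits Htr1a and Htr1d in excitatory-like nuclei, at 10 to 15 UMIs a library.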

Other observations

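The unnamed cluster 23, with Pmp22 among its leading genes (33 injured and 44 naive nuclei), held Htr1f at 353 CPM injured and 595 CPM naive and Htr2c at 1630 CPM injured and 1179 CPM naive, and 12.1% of its injured and 15.9% of its naive nuclei had an Htr1f UMI. Astrocyte-like nuclei (47 injured and 54 naive) held Adra1a at 132 CPM injured and 78.6 CPM naive, with a UMI in 38.3% of injured and 22.2% of naive nuclei. Their cluster also carried ependymal markers, at a median of 22.9 times the level in all nuclei, beside 46.6 times for astrocyte markers. The Adra1a values were not split between these kinds. Inhibitory transmitter genes were present in the cluster too, at 147 CPM over both libraries. The part of other cells' RNA in these values was not tested.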
